A study of Mus musculus with 6 samples.

Results

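The Bcl2 family of cell death regulators was followed in mouse regulatory T cells (Treg) through 10 genes: Bcl2, Bcl2l1, Mcl1, Bcl2l11, Bbc3, Pmaip1, Bid, Bad, Bax and Bak1. The members were chosen by gene name, with earlier results of these data known, and all 10 were found among the 36811 genes of the deposited table. Each passed the filter, an average of 1 FPKM or more across libraries (FPKM are fragment numbers scaled by transcript length and library size). Treg were sorted from the spleen of C57BL/6 mice aged 18 to 21 weeks by the EGFP placed at Foxp3, the gene of their defining transcription factor. There were 3 libraries labelled cKO, with the genotype Bach2fl/fl Foxp3EGFP-Cre-ERT2, and 3 labelled WT, with Bach2+/+ Foxp3EGFP-Cre-ERT2. Mice of both groups thus carried the Cre-ERT2 recombinase at Foxp3, and the groups differed in the floxed alleles of Bach2, a transcriptional repressor. Cre-ERT2 acts only with tamoxifen or a like ligand. Whether the mice had one was not stated in the labels. Nor do these tell if each library is a different animal, so a p-value here speaks of the spread among libraries, which may be technical. Below, the cKO set and the WT set are the libraries with those labels, and their values are given in the order of replicates 1, 2 and 3.

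Family proteins decide whether the outer membrane of the mitochondrion is opened. The survival proteins Bcl-2, Bcl-xL (from Bcl2l1) and Mcl-1 hold the pore-forming proteins Bax and Bak in check, and the BH3-only proteins, among them Bim (from Bcl2l11), bind the survival proteins or act on Bax and Bak directly. Once pores form, cytochrome c leaves the mitochondrion and caspases are switched on. In Treg, Mcl-1 is known to be needed for survival, and Bim is known to limit the number of these cells when interleukin-2 is scarce. Whether a lymphocyte lives is often described by the ratio of Bcl-2 to Bim, which is why ratios between members are given beside the levels.

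The start regions of Bcl2 and Bcl2l11 are shown because the ratio of these 2 genes had the largest difference between the groups among the 6 ratios computed. They are the 250 bases before the most upstream RefSeq start of each gene on GRCm38.p6, at chr1:106714291-106714540 on the minus strand for Bcl2 and at chr2:128125788-128126037 on the plus strand for Bcl2l11. Capitals mark motifs found by search on both strands.
Bcl2: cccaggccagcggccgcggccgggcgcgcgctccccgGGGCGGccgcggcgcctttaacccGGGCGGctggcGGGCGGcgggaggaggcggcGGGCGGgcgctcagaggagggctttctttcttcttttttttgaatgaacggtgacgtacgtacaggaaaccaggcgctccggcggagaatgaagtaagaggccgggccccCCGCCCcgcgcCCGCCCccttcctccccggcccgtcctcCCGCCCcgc
Bcl2l11: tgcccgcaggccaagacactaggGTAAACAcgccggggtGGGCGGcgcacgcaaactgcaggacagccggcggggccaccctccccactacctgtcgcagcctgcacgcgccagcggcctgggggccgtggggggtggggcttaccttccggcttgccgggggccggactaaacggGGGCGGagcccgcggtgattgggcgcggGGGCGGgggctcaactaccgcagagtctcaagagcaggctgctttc
The Bcl2 window held 7 GC boxes (GGGCGG, a site of Sp1-type factors, or its complement CCGCCC). The Bcl2l11 window held 3 GC boxes and 1 FoxO-type motif (GTAAACA), the letters starting at base 24 of the window. The window of the downstream Bcl2l11 start, at chr2:128127325-128127574, did not hold the FoxO-type motif. A window of Bbc3, at chr7:16310011-16310260, held 1 as well. GC boxes were found in 32.7% and the FoxO-type motif in 3.17% of 32851 RefSeq promoter windows of the same length. The motif of AP-1 and Bach factors (TGANTCA), the STAT-type motif (TTCNNNGAA) and the cyclic AMP response element (TGACGTCA) were searched as well. None of these 3 was found in the 15 windows searched, which cover 9 members, against 6.75%, 7.02% and 1.55% of all windows. The member left out of this search was Pmaip1.

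Depth estimated from the steps between low values lay between 3050000 fragments in WT 2 and 5020000 in cKO 2, and these same libraries stood at the opposite ends of the first principal component (26.5% of the variance). The libraries did not group by label. Bach2 itself gave no lower level under the cKO label, at 7.88, 9.19 and 6.44 FPKM in the cKO set against 3.29, 8.25 and 4.80 FPKM in the WT set. A row sums the whole gene, and which exons are floxed is not given in the sources used here, so the labels remain unchecked. The T cell genes Cd4, Cd3e, Cd3g, Il2ra, Ctla4 and Ikzf2 and Foxp3 were detected in each library. Foxp3 was the lowest of the 7, between 5.16 and 9.44 FPKM. Over the 6 libraries, B cell markers summed to 106 to 159 FPKM, plasma cell markers to 127 to 211, endothelial and stromal markers to 45.0 to 65.2 and platelet markers to 0.266 to 2.27. CD8 and NK cell markers summed to 105 to 131 FPKM in the libraries labelled cKO and 82.8 to 104 FPKM in those labelled WT, so these sums did not overlap. Nkg7 was the largest part of each sum, at 83.3 to 107 FPKM in the libraries labelled cKO and 59.6 to 79.2 FPKM in those labelled WT. Of the 6 markers 3 passed the filter, and none of these passed the adjusted threshold. Nkg7 was higher and Klrd1 lower in each library labelled cKO, and Cd8b1 overlapped. Under the filter, Klrb1c was lower in each library labelled cKO (means of 0.637 against 1.24 FPKM), and Cd8a and Ncr1 overlapped. The separate sums are thus not shared by the markers as a set. The part of such cells in the values that follow was not tested. Of 11979 genes tested, 3 (0.025%) had an adjusted p under 0.05, and 0 of the 10 members were among them.

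Bax stood far above the other members, and the survival genes lay close together in the middle of the order. On the FPKM scale, which is per length, the mean level over the 6 libraries was 148 for Bax, 43.5 for Bid, 35.6 for Bad, 25.2 for Bcl2, 23.7 for Bcl2l1, 21.8 for Mcl1, 9.48 for Bbc3, 8.37 for Bcl2l11, 4.24 for Pmaip1 and 1.97 for Bak1. The ranges of neighbours were separate at 2 steps, between Bax and Bid and between Mcl1 and Bbc3. At the other steps the ranges overlapped. Bcl2 was above Bcl2l1 in 3 of the 6 libraries, so these neighbours in the order do not differ beyond their spread. Pmaip1 was above Bak1 in 6 of 6 libraries although their ranges overlapped. Bax alone made up between 43.9% and 47.7% of the summed FPKM of the 10 members in each library.

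**Figure D1:**
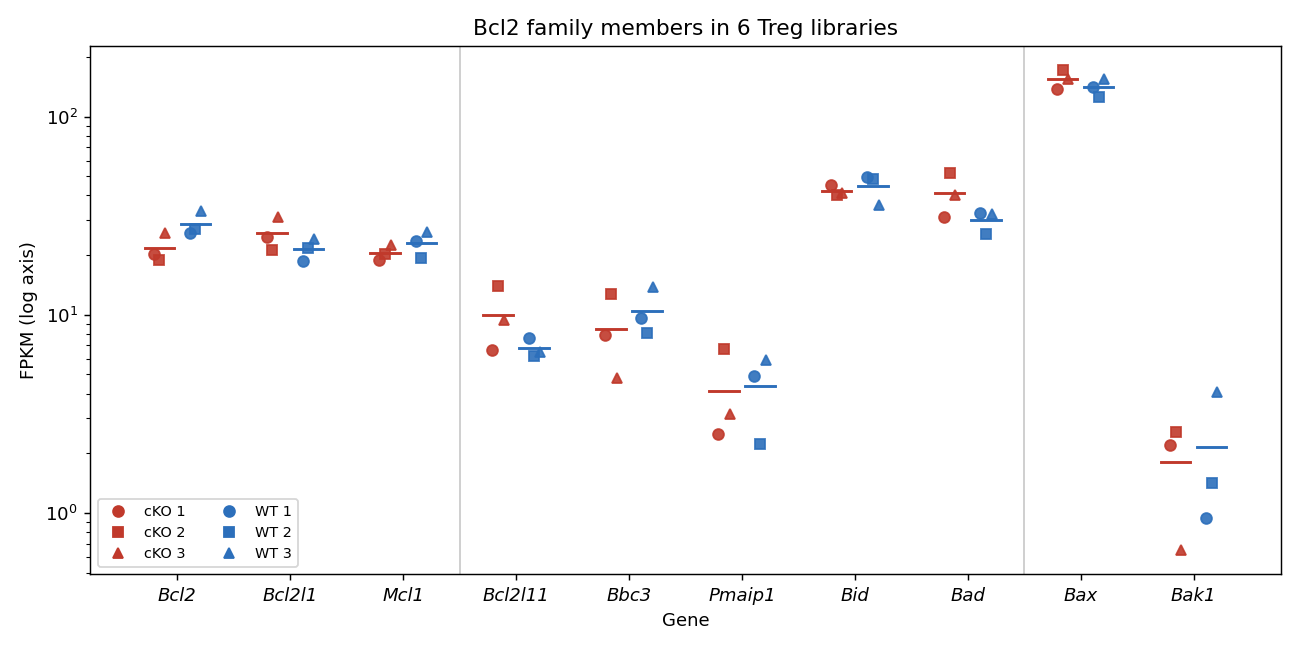
FPKM (log axis) of the 10 members in each library, with red points for the libraries labelled cKO, blue points for those labelled WT, a shape for each replicate number and a line at each group's mean. Grey lines part survival genes, BH3-only genes and pore-forming genes. Groups are apart for Bcl2 alone, where the 3 libraries labelled cKO lie between 19.0 and 25.7 FPKM and those labelled WT between 25.8 and 33.3 FPKM.

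Among the survival genes, Bcl2 was the member whose groups did not overlap. Bcl2, which encodes the founding survival protein of the family, measured 20.3, 19.0 and 25.7 FPKM in the cKO set against 25.8, 27.0 and 33.3 FPKM in the WT set. Each library labelled cKO was below each library labelled WT, but cKO 3 and WT 1 lay next to each other. The group means were 21.7 ± 3.56 and 28.7 ± 4.04 FPKM (SD, n = 3 each), and the log2 difference was -0.39 (SE 0.177, 95% interval -0.82 to 0.033, adjusted p = 0.925 by limma, Benjamini-Hochberg). Bcl2 was thus 1 of 10 members with separate groups in this direction, against 3.75% of all genes tested, and 0 of 10 were separate in the other direction, against 6.96%. The log2 difference of Bcl2 kept its sign in 19 alternatives, between -0.52 and -0.20. It was -0.24 with libraries scaled to equal FPKM sums and -0.44 with quantile normalization. Exons of an antisense gene, D630008O14Rik, overlap those of Bcl2 in GENCODE M21, and its own row held 25.4 to 32.7 FPKM in the libraries labelled cKO and 29.3 to 41.1 FPKM in those labelled WT. The strand setting is not given in the sources used here, so reads at the exon positions that Bcl2 and its antisense partner share cannot be told apart. In such bulk samples, fewer cells of a type and less RNA per cell cannot be told apart either.

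Bcl2l1 encodes Bcl-xL, which takes over survival in activated lymphocytes and in red cell precursors. It measured 24.8, 21.2 and 31.2 FPKM in the cKO set against 18.8, 21.8 and 24.2 FPKM in the WT set. The groups overlapped, with cKO 3 the highest and WT 1 the lowest library. The log2 difference was 0.23 (SE 0.189, adjusted p = 0.925 by limma, Benjamini-Hochberg). Without cKO replicate 3 it was 0.091. Of 8 erythroid markers 5 passed the filter, each with a log2 difference above 0 and none past the threshold, and the summed level of the 8 was 253 to 514 FPKM in the libraries labelled cKO and 94.7 to 234 FPKM in those labelled WT. Of the erythroid markers Epb42, a red cell membrane protein, was listed at 0 in cKO 1, WT 2 and WT 3. The part of these markers in the Bcl2l1 values was not tested.

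Mcl1 encodes the short-lived survival protein that holds Bak and is the target of Noxa. It measured 18.8, 20.3 and 22.6 FPKM in the cKO set against 23.5, 19.3 and 26.2 FPKM in the WT set. WT 2 lay among the libraries labelled cKO, so the groups overlapped. The log2 difference was -0.15 (SE 0.165, adjusted p = 0.942 by limma, Benjamini-Hochberg), and it was 0.0023 with libraries scaled to equal FPKM sums. Summed over Bcl2, Bcl2l1 and Mcl1, the level was 63.9, 60.5 and 79.6 FPKM in the cKO set against 68.1, 68.1 and 83.6 FPKM in the WT set. These sums overlap between the groups, with replicate 3 the highest in each.

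Among the BH3-only genes, Bcl2l11 and Bad had the largest positive differences, and both rested in large part on cKO 2. Bcl2l11, which encodes Bim, measured 6.66, 14.0 and 9.36 FPKM in the cKO set against 7.62, 6.19 and 6.46 FPKM in the WT set. The libraries cKO 2 and cKO 3 lay above the others, while cKO 1 lay within the range of those labelled WT. The means were 9.99 ± 3.69 and 6.76 ± 0.761 FPKM (SD, n = 3 each), and the log2 difference was 0.45 (SE 0.271, 95% interval -0.20 to 1.10, adjusted p = 0.925 by limma, Benjamini-Hochberg). Without cKO replicate 2 the difference was 0.20, and without cKO replicate 1 it was 0.69. By the estimated depth at most 95 to 353 fragments lay behind each Bcl2l11 value.

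Bad encodes a BH3-only protein that is kept inactive by phosphorylation and 14-3-3 binding. It measured 31.2, 52.1 and 39.97 FPKM in the cKO set against 32.4, 25.7 and 32.2 FPKM in the WT set. The highest library was cKO 2 and the lowest WT 2, and cKO 1 lay among those labelled WT. The log2 difference was 0.41 (SE 0.215, adjusted p = 0.925 by limma, Benjamini-Hochberg), and 0.23 without cKO replicate 2. The exons of Bad overlap those of Gpr137 on the other strand, whose row held 5.22 to 8.55 FPKM in the 6 libraries.

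Bbc3 and Pmaip1 encode Puma and Noxa, BH3-only proteins under the control of p53. Bbc3 measured 7.91, 12.7 and 4.78 FPKM in the cKO set against 9.61, 8.04 and 13.8 FPKM in the WT set. Pmaip1 measured 2.52, 6.70 and 3.15 FPKM in the cKO set against 4.93, 2.24 and 5.92 FPKM in the WT set. The groups overlapped in both genes. For Bbc3 the log2 difference was -0.34 (SE 0.355) and for Pmaip1 -0.080 (SE 0.417), with adjusted p = 0.935 and 0.996 by limma, Benjamini-Hochberg. Bbc3 was at -0.65 without cKO replicate 2 and at -0.024 without cKO replicate 3, and Pmaip1 at 0.15 without cKO replicate 1 and at -0.42 without cKO replicate 2.

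Bid, which is cut by caspase 8 and links death receptors to the mitochondrion, was the BH3-only gene with the highest level. It measured 45.4, 40.1 and 41.2 FPKM in the cKO set against 49.5, 48.6 and 36.0 FPKM in the WT set. The group labelled WT held both the highest values and the lowest. The log2 difference was -0.068 (SE 0.164, 95% interval -0.46 to 0.32, adjusted p = 0.977 by limma, Benjamini-Hochberg). Its sign turned with libraries scaled to equal sums, to 0.086. Exons of Bid overlap those of its relative Bcl2l13 on the other strand, a gene at 5.06 to 6.31 FPKM.

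The 2 pore-forming genes stood far apart in level. Bax measured 139, 172 and 156 FPKM in the cKO set against 142, 126 and 154 FPKM in the WT set. The groups overlapped, again with cKO 2 the highest and WT 2 the lowest library, and the log2 difference was 0.14 (SE 0.141, adjusted p = 0.933 by limma, Benjamini-Hochberg). Bak1 measured 2.21, 2.56 and 0.649 FPKM in the cKO set against 0.946, 1.41 and 4.07 FPKM in the WT set. Its lowest and highest libraries were cKO 3 and WT 3. The log2 difference was -0.11 (SE 0.487, 95% interval -1.28 to 1.05, adjusted p = 0.992 by limma, Benjamini-Hochberg). By the estimated depth at most 6 to 38 fragments lay behind a Bak1 value and 422 to 950 behind a Bax value. Bak1 also shares exon positions with Ggnbp1 on the other strand, at 0.106 to 3.64 FPKM, and Gm45808, which overlaps Bax on the same strand, was not analysed here.

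**Figure D2:**
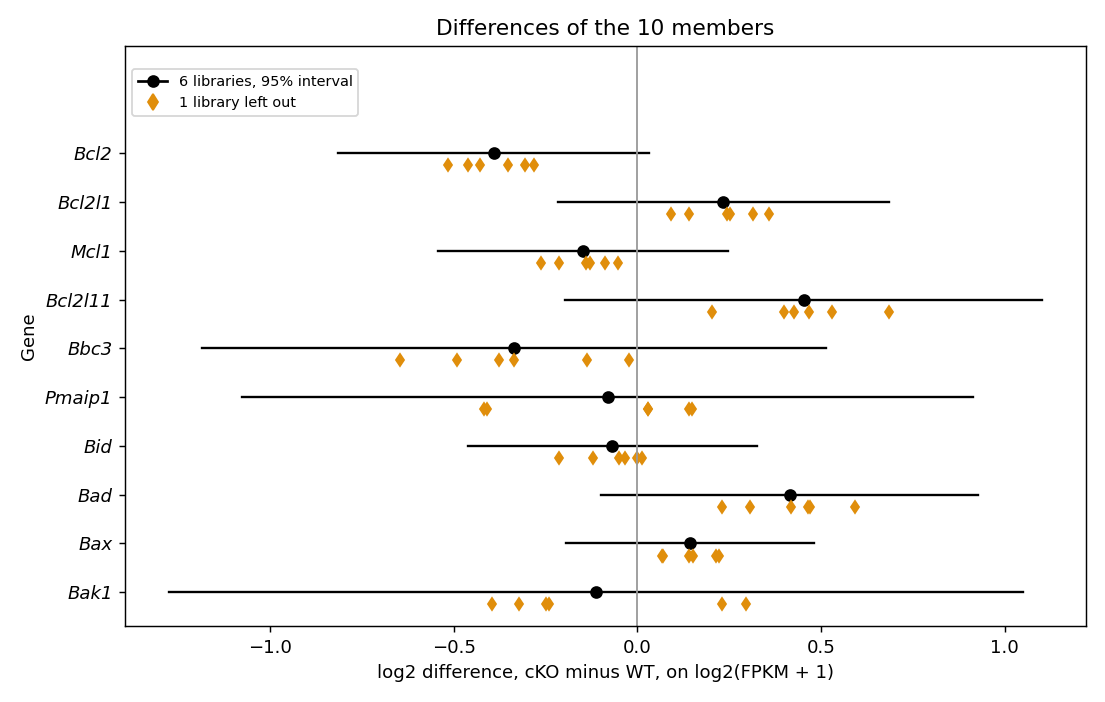
Log2 difference (cKO minus WT) of each member on the log2(FPKM + 1) scale, with black points and lines for the fit of all 6 libraries and its 95% interval, and orange diamonds for the fits with 1 library left out. Each interval includes 0, that of Bcl2 from -0.82 to 0.033, and the diamonds lie on both sides of 0 for Pmaip1, Bak1 and Bid.

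Over the 10 members, 4 had a log2 difference above 0, and the median was -0.074, beside a median of 0.033 and 55% above 0 among all genes tested. None passed the adjusted threshold, and 0 of 10 had an unadjusted p under 0.05 (limma), against 5.37% of all genes, in the fit of all 6 libraries. Over the 19 alternatives (18 for Pmaip1 and Bak1, which a higher filter removed) the lowest unadjusted p (limma) was 0.036 for Bcl2, 0.028 for Bcl2l1, 0.032 for Bcl2l11, 0.043 for Pmaip1 and 0.025 for Bad, with none past the adjusted threshold, and it was above 0.05 for the other 5 members. Scaling to equal FPKM sums moved the median of all genes to 0.18, and Mcl1, Pmaip1, Bak1 and Bid then stood above 0.

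The ratio of Bcl2 to Bcl2l11 was lower in each library labelled cKO. It was 3.05, 1.36 and 2.75 in the cKO set against 3.38, 4.36 and 5.16 in the WT set. The geometric means were 2.25 and 4.23, a 1.88-fold difference, or -0.91 on the log2 scale (exact permutation test, two-sided, p = 0.1, adjusted p = 0.2 over the 6 ratios). With 3 libraries against 3 this p is the smallest the test can give, so no ratio could pass 0.05. The library cKO 2 was the lowest of all 6, and without it the log2 difference was -0.55. It was -0.53 without cKO replicate 2 and WT replicate 2, an alternative added after seeing the data.

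The other ratios to Bcl2l11 share its values and are not independent of that result. Mcl1 to Bcl2l11 was 2.83, 1.45 and 2.42 in the cKO set against 3.08, 3.12 and 4.05 in the WT set. Here too each library labelled cKO was lower, with a log2 difference of -0.66 (exact permutation test, p = 0.1, adjusted p = 0.2), which was -0.38 without cKO replicate 2. Bcl2l1 to Bcl2l11 was 3.72, 1.52 and 3.34 in the cKO set against 2.46, 3.52 and 3.74 in the WT set. These values overlapped, with a log2 difference of -0.26 (exact permutation test, p = 0.6, adjusted p = 0.9) that turned to 0.14 without cKO replicate 2.

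Bcl2 to Bax, the survival gene against the pore-forming gene, was 0.147, 0.111 and 0.165 in the cKO set against 0.182, 0.215 and 0.216 in the WT set. Each library labelled cKO was lower, and the log2 difference was -0.55 (exact permutation test, p = 0.1, adjusted p = 0.2). Without cKO replicate 2 it was -0.39. Mcl1 to Bak1 ranged from 7.94 to 34.8 in the libraries labelled cKO and from 6.42 to 24.9 in those labelled WT, with a log2 difference of 0.036 (exact permutation test, p = 1.0). Mcl1 to Pmaip1 ranged from 3.03 to 7.47 and from 4.42 to 8.64, with a difference of -0.055 (exact permutation test, p = 1.0). Groups were thus separate in 3 of 6 ratios, and each of the 3 contains Bcl2 or Bcl2l11. So does Bcl2l1 to Bcl2l11, whose groups overlapped. Among single genes tested, groups were separate in 10.7%. The ratios share genes and were chosen with earlier results of these data known, so that share is no measure for them.

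**Figure D3:**
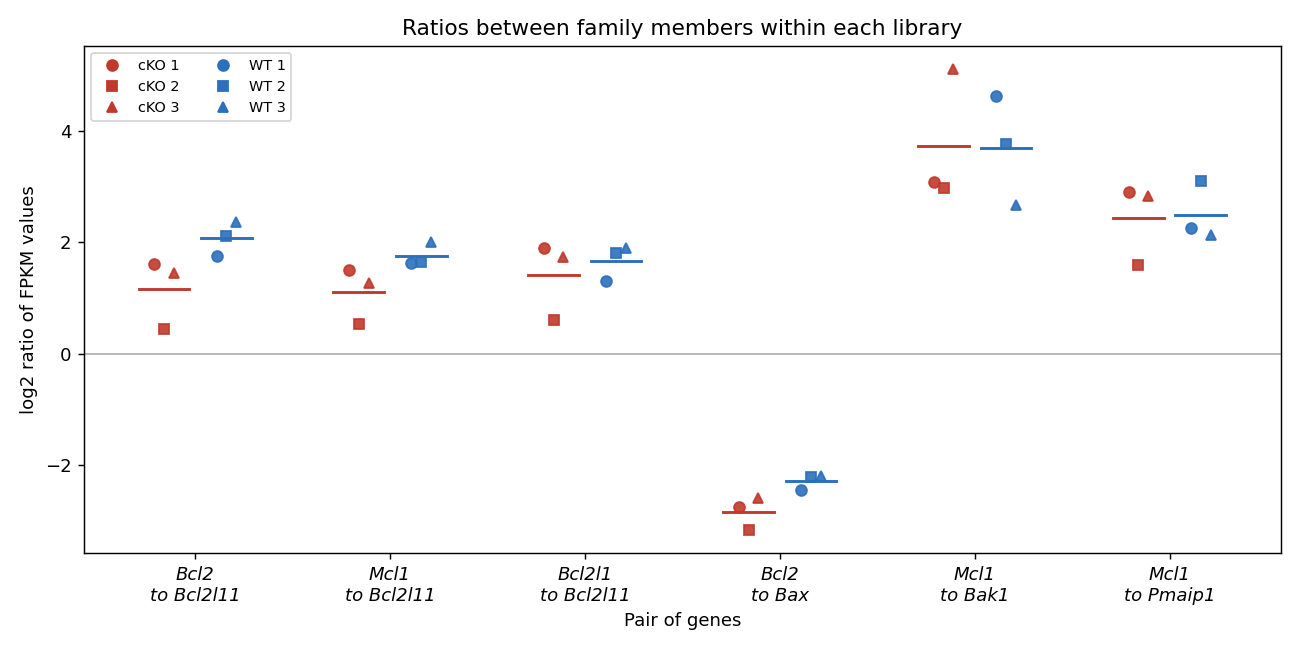
Log2 of the ratio of FPKM values for 6 pairs of genes in each library, with red points for the libraries labelled cKO, blue points for those labelled WT, a shape for each replicate number and lines at the mean log2 ratio of each group. In Bcl2 to Bcl2l11, Mcl1 to Bcl2l11 and Bcl2 to Bax the red points lie below the blue ones, with cKO 2 the lowest in each.

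The summed survival genes against the summed BH3-only genes did not separate the groups. This ratio was 0.682, 0.481 and 0.808 in the cKO set against 0.654, 0.751 and 0.886 in the WT set. The lowest value was again that of cKO 2, in which the BH3-only genes summed to 126 FPKM, against 90.7 to 104 FPKM in the other libraries. Bid and Bad make up most of this sum, and the values are a description of transcript levels.

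The pro-death members did not vary as 1 group across libraries. Pearson's r of log2(FPKM + 1) over the 6 libraries was 0.96 for Bcl2l11 and Bad, 0.93 for Bax and Bad and 0.82 for Bcl2l11 and Bax. Bid ran the other way, at -0.74 with Bax, -0.63 with Bak1, -0.56 with Pmaip1 and -0.48 with Bad, and Bcl2l11 with Bak1 was at -0.064. Among Bcl2l11, Bad and Bax, in all 3 genes cKO 2 was the highest library and in all 3 WT 2 the lowest, and these had the largest and the smallest estimated depth and stood at the ends of the first component. The part of depth in these values was not tested. Without both of these libraries the log2 difference was 0.15 for Bcl2l11, 0.12 for Bad and -0.0087 for Bax. Bcl2 stood at -0.34 in that fit.

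**Figure D4:**
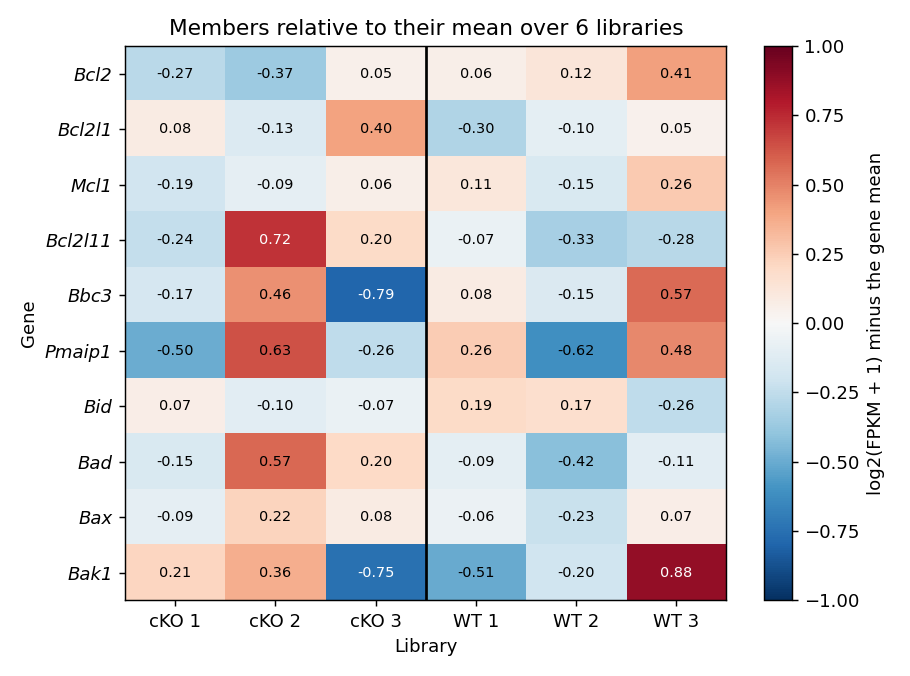
Level of each member in each library on the log2(FPKM + 1) scale minus the gene's mean over the 6 libraries, with red above and blue below the mean. The column of cKO 2 holds the highest values of Bcl2l11 (0.72), Pmaip1 (0.63), Bad (0.57) and Bax (0.22) and the lowest of Bcl2 (-0.37).

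The genes most like Bcl2 across the 6 libraries, among 6893 with a mean of at least 10 FPKM, were Gm15427 (Pearson's r = 0.99), the row ENSMUSG00000088788 without a symbol (0.98) and Pip4p2 (0.96). Those most like Bcl2l11, among 6894, were Dcun1d1 (Pearson's r = 0.996), Zcchc9 (0.99) and Mrpl27 (0.99). For example, Mrpl27, a protein of the mitochondrial ribosome, measured 32.8, 64.9 and 42.9 FPKM in the cKO set against 33.6, 28.5 and 32.0 FPKM in the WT set. This is the order of high cKO 2, then cKO 3, then the rest that Bcl2l11 showed. With 6 libraries such values are a description.

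Of 16 further family genes listed, 14 had a row and 8 passed the filter, and none passed the test. Bcl2a1b encodes a form of A1, a survival protein induced in activated leukocytes and abundant in myeloid cells. It measured 84.3, 123 and 93.6 FPKM in the cKO set against 71.4, 59.1 and 75.7 FPKM in the WT set. Each library labelled cKO was higher, and the log2 difference was 0.53 (SE 0.184, adjusted p = 0.915 by limma, Benjamini-Hochberg). Bcl2a1b was 1 of the 8 tested with separate groups in this direction, against 6.96% of all genes.

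Near-identical copies of the A1 gene exist. Bcl2a1a and Bcl2a1d were listed, but no row was paired with their symbols, so the Bcl2a1b value is uncertain. Myeloid markers summed to 214 to 893 FPKM in the libraries labelled cKO and 182 to 312 FPKM in those labelled WT. Of the 11, 7 passed the filter and 5 of these were above 0, with a median log2 difference of 0.55. S100a8 was at 545 FPKM in cKO 2, against at most 152 FPKM elsewhere. Its level in cKO 3, 74.6 FPKM, was below the 86.8 to 123 FPKM of the libraries labelled WT. Ly6g was at 3.77 and 2.71 FPKM in cKO 1 and cKO 2 and listed at 0 in cKO 3 and in each library labelled WT. Cd68 and Fcgr3 were the tested markers below 0, with log2 differences of -0.050 and -0.12. Cd14, under the filter, was at 1.12, 1.21 and 1.70 FPKM in the cKO set against 0.894, 0.222 and 0 FPKM in the WT set. The part of myeloid RNA in the Bcl2a1b values was not tested.

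Bnip3l, a mitochondrial protein of mitophagy, was the most abundant of the further family genes at 180 ± 24.97 against 173 ± 17.0 FPKM (SD, n = 3 each) and a log2 difference of 0.053. Its hypoxia-induced relative Bnip3 stood at 4.31 ± 1.44 against 3.06 ± 0.562 FPKM, a difference of 0.36. Bcl2l12 stood at 8.89 ± 4.32 against 9.56 ± 2.94 FPKM, Bcl2l13 at 5.79 ± 0.270 against 5.87 ± 0.699 FPKM and Bcl2l14 at 2.19 ± 0.545 against 2.65 ± 0.761 FPKM. The groups of these 5 genes overlapped, and Bcl2l12 shares exon positions with Irf3 on the other strand, at 71.8 to 88.9 FPKM. Bmf, a BH3-only gene, was listed at 0 in cKO 2 and WT 1 and at 1.89 to 2.91 FPKM in the other libraries, and Bcl2a1c was listed at 0 in cKO 1 and WT 2 and reached at most 2.28 FPKM. Under the filter, Bcl2l2 (Bcl-w) lay between 0.168 and 1.33 FPKM, Bcl2l15 between 0.179 and 1.65 FPKM, Bik between 0 and 1.24 FPKM and Bok between 0 and 0.741 FPKM. Bcl2l10 and Hrk were listed at 0 in all 6 libraries.

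Downstream of the mitochondrion, 15 of 15 listed genes of the apoptosome, caspases and their inhibitors were tested and none passed. Of them 12 had a log2 difference above 0, with a median of 0.12, beside 0.033 for all genes. Htra2 and Diablo, proteins released from mitochondria that block caspase inhibitors, had differences of 0.29 and 0.21, and their groups overlapped.

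Upstream, 12 of 15 listed transcription factors were tested, and none passed, with 7 above 0 and a median log2 difference of 0.038. Nfkb1, a subunit of NF-kB, averaged 56.7 ± 7.29 FPKM in the cKO set and 40.6 ± 7.06 FPKM in the WT set (SD, n = 3 each), a log2 difference of 0.48 (adjusted p = 0.915 by limma, Benjamini-Hochberg). Rel, a subunit known to drive Bcl2a1 and Bcl2l1, had a difference of 0.33. Myc stood at 76.3 ± 5.73 against 94.5 ± 7.77 FPKM and a difference of -0.30. The groups did not overlap for Nfkb1, Myc and Trp53 (1 of 12 higher and 2 of 12 lower in the libraries labelled cKO, against 6.96% and 3.75% of all genes) but did for Rel. Trp53, the gene of p53, measured 258, 191 and 252 FPKM in the cKO set against 274, 295 and 275 FPKM in the WT set, and was named after its values were seen.

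Of the p53 targets 11 of 14 were tested and none passed, with 2 above 0 and a median log2 difference of -0.073. Among all genes tested 55% were above 0 and the median was 0.033. Aen, a p53-induced nuclease, averaged 5.71 ± 1.01 FPKM in the cKO set and 8.30 ± 0.0664 FPKM in the WT set (SD, n = 3 each), a log2 difference of -0.48 (adjusted p = 0.915 by limma, Benjamini-Hochberg). Its groups did not overlap, which held for 1 of the 11 in this direction, against 3.75% of all genes. In the other direction 0 of the 11 were separate, against 6.96%. Mdm2, the ubiquitin ligase of p53, was at -0.26 and Ccng1 at 0.22.

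Of 7 cytokine receptor genes and the receptor kinases Jak1 and Jak3, which carry survival signals to T cells, 9 of 9 were tested and none passed, with 4 above 0 and a median log2 difference of -0.024. Il15ra, the private chain of the interleukin-15 receptor, averaged 27.5 ± 3.96 FPKM in the cKO set and 18.4 ± 3.64 FPKM in the WT set (SD, n = 3 each), a difference of 0.56 (adjusted p = 0.915 by limma, Benjamini-Hochberg), and its groups did not overlap, which held for 1 of the 9 in this direction against 6.96% of all genes. Il2ra and Il7r had differences of 0.13 and 0.12.

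Kinases and adaptors that act on Bad and Bim were tested in 16 of 16 cases. None passed, 12 were above 0 and the median log2 difference was 0.075. Groups did not overlap in 4 of the 16, each higher in the libraries labelled cKO, against 6.96% of all genes. Ywhae, a 14-3-3 protein, averaged 156 ± 13.045 FPKM in the cKO set and 114 ± 17.0 FPKM in the WT set (SD, n = 3 each), a difference of 0.46. Ywhah, of the same family, averaged 91.8 ± 29.6 and 61.5 ± 1.23 FPKM in these sets. Its log2 difference was 0.53, and cKO 2 was its highest library at 126 FPKM. Pim1, a kinase of Bad, stood at 9.81 ± 3.59 against 5.34 ± 1.47 FPKM and a difference of 0.75 (adjusted p = 0.915 by limma, Benjamini-Hochberg).

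Of the genes for turnover of Mcl-1, 6 of 8 were tested and none passed, with 3 above 0 and a median log2 difference of 0.041. Huwe1, a ubiquitin ligase of Mcl-1, had a difference of 0.41, the deubiquitinase Usp9x one of -0.33 and Fbxw7, another ligase component, one of -0.26. The groups of each of the 3 overlapped.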

How the data were processed

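Spleen Treg gave 6 RNA libraries (SmartSeq2), per the labels. The submitters' processing notes name HISAT2, cutadapt and FastQC and the mouse builds NCBIM37 and mm9, without versions. The authors deposited FPKM values, fragment numbers scaled by transcript length and library size, for 36811 genes. Cuffnorm made them, by the name of the table. Annotation, strand setting and filters were not given in the sources used here. Groups were taken from the sample titles.

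Gene identifiers were paired with symbols through reference tables (31840 of 36811 matched). The test was limma 3.58.1 (R 4.3.3) with a variance trend and without a block. It ran on log2(FPKM + 1) of genes averaging 1 FPKM or more, with p-values adjusted by Benjamini-Hochberg over all genes tested at a threshold of 0.05. Ratios of 2 genes were taken within each library without a pseudocount and compared with a two-sided exact permutation test, adjusted over the 6 ratios. The procedure was checked on simulated data. Depth was estimated from the step between low FPKM values of genes with a single transcript of at least 2000 bases. Fragment numbers from it use the longest transcript in GENCODE M21. They are upper estimates only where the annotation behind the FPKM values, which is not given, holds no longer transcript. No count test was run, since FPKM values are not counts.

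The members, lists and ratios were chosen with earlier results of these data known. The 10 members and all measured relatives are named, and up to 3 genes with the smallest p of each further list, except that some genes of these lists are not reported here. Libraries with the same replicate number did not deviate together. Alternatives were other pseudocounts, filters, scalings and variance settings, a replicate block, protein-coding genes alone and each library left out. Python 3.11.15, numpy 2.4.6, pandas 2.3.3, scipy 1.17.1 and matplotlib 3.10.9 were used.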

Additional observations from a re-analysis of the deposited data

How the results depend on the processing

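The member count past the threshold was 0 in each of 19 alternatives (limma), 1 of them added after seeing the data. Bcl2, Bcl2l1, Bcl2l11, Bbc3 and Bad kept their sign in all 19. With equal FPKM sums the log2 difference was 0.0023 for Mcl1, 0.047 for Pmaip1, 0.0091 for Bak1 and 0.086 for Bid. Without 1 library it ranged from -0.42 to 0.15 for Pmaip1, from -0.40 to 0.30 for Bak1 and from -0.21 to 0.012 for Bid. Without cKO replicate 2 and WT replicate 2, the added alternative, it was -0.0087 for Bax, 0.033 for Bid, -0.75 for Pmaip1 and -0.45 for Bak1. The count of 3 genes over the whole table was 1 among protein-coding transcripts, 18 without both of these libraries and 5 to 15 without 1 library. Without 1 library the log2 ratio difference ranged from -0.50 to 0.14 for Bcl2l1 to Bcl2l11, from -0.66 to 0.50 for Mcl1 to Bak1 and from -0.28 to 0.37 for Mcl1 to Pmaip1. Without both libraries Bcl2l1 to Bcl2l11 was 0.22 and Mcl1 to Pmaip1 was 0.67, and with a pseudocount of 1 FPKM Mcl1 to Bak1 was -0.035. The cause was not tested.

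Libraries of the same replicate number did not deviate together (correlations of -0.060, -0.18 and -0.017). With the replicate block 1 gene passed over the whole table and no member, and the smallest exact p of 3 pairs is 0.25. Depth limits Bak1 and Pmaip1 most, with an estimated 6 to 38 and 19 to 92 fragments at most behind a value.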
